A study of Arabidopsis thaliana with 36 samples.

Results

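The hda9-1 mutant of Arabidopsis thaliana (hda9 below) was compared with the wild type Col-0 (WT) after 7 days of growth at 27 °C. The comparison covers 20594 genes, which are those with a normalised read count of at least 10 in at least 3 of the 3 hda9 and 3 WT libraries. They were taken from 33540 genes in the files, of which 28211 had a value above 0 in at least 1 library of the series. The other groups used are pif4-2 (pif4) at 27 °C and 7 days, hda9 and WT at 22 °C and 7 days, and hda9 and WT at 27 °C and 2 days, with 3 libraries each (n = 3 for every mean and SD below). All are in the Col-0 background. Seedlings grew on agar plates in short days of 8 h light and 16 h dark at the stated temperature from the end of stratification, and whole seedlings were frozen at lights on, so the values describe dawn. Each library pools RNA from 3 separately harvested batches, and each mutant is represented by 1 allele. The p-values measure the spread between these pooled libraries. Stage of development was recorded as age alone.

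HDA9 is a class I histone deacetylase that removes acetyl groups from histone H3 and acts in a complex with the SANT-domain protein POWERDRESS and the WD40 protein HOS15. Although deacetylation is usually linked to repression, HDA9 is found at the starts of active genes. At warm temperature Arabidopsis seedlings elongate their hypocotyls and petioles, a response called thermomorphogenesis. It runs through the transcription factor PIF4, auxin synthesis by YUCCA8 (YUC8) and auxin-induced growth genes. HDA9 has been placed in this response through loss of the histone variant H2A.Z at YUC8, and the comparison asks which transcripts differ when HDA9 is impaired in warm-grown seedlings.

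The HDA9 transcript itself had normalised read counts of 74.7, 73.8 and 71.7 in the 3 hda9 libraries, against 488, 483 and 474 in the WT libraries. The groups were far apart and each varied little (73.4 ± 1.53 in hda9 and 482 ± 7.38 in WT, mean ± SD). The log2 difference, hda9 minus WT, was -2.70 (SE 0.14), a 6.49-fold lower level with an adjusted p of 7.97e-10. Differences and their tests come from limma on log2(value + 1) with Benjamini-Hochberg adjustment over all 20594 genes, a gene is called at an adjusted p under 0.05, and folds on this scale understate changes of genes with low values. The counts do not show from which stretch of the HDA9 transcript the remaining reads came. In the pif4 libraries HDA9 had 490, 535 and 505, not called against WT (log2 difference 0.08, adjusted p 0.713).

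Across all genes, 7275 of 20594 were called (35.3%), of which 3925 were higher in hda9 (19.1%) and 3350 lower (16.3%). Most of these differences were small: 210 genes were called and at least 2-fold higher (1.02%), and 377 were called and at least 2-fold lower (1.83%). The median log2 difference over all genes was -0.01, with a range of -3.73 to 5.30. Library sizes ran from 28455368 to 55503049 reads in genes over these 6 libraries. Over the 6 libraries 64% of the variance lay on 1 principal component, which placed the hda9 libraries between 23.01 and 37.83 and the WT libraries between -33.01 and -26.08. No pair of libraries of the same group agreed within sampling noise, and each was counted as 1 replicate. Sampling noise alone cannot show whether their RNA pools were separate. The count of each gene group below is to be read against 19.1% higher and 16.3% lower, shares that differed by expression level. Where groups are said not to overlap, this describes genes already called, and its share over all genes was not counted.

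**Figure D1:**
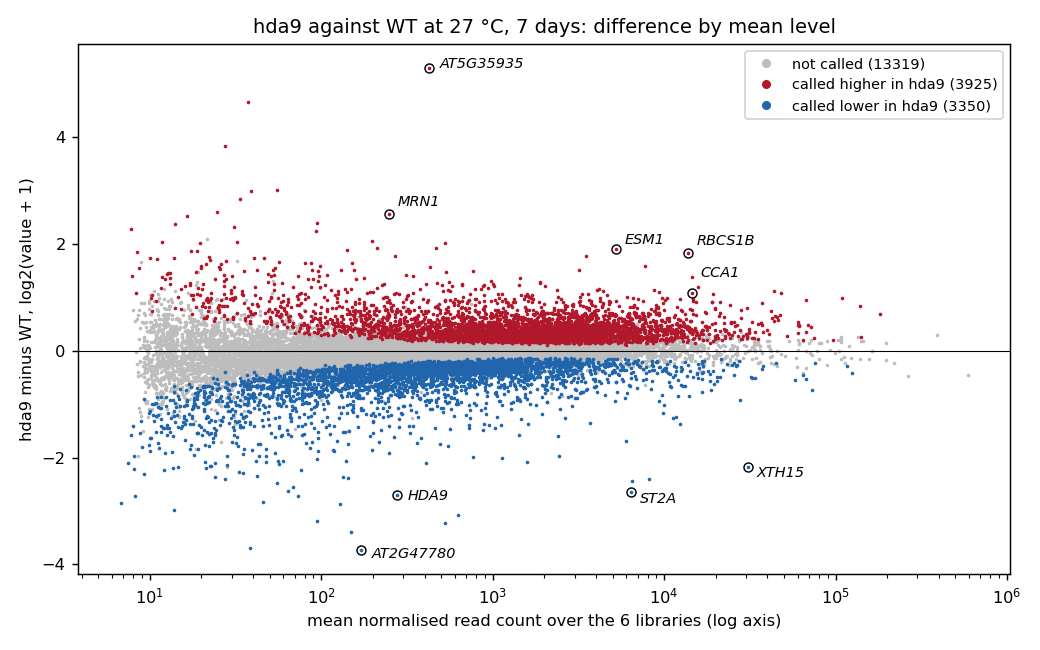
Log2 difference (hda9 minus WT at 27 °C, 7 days) of each of the 20594 genes against its mean normalised read count over the 6 libraries (log axis). Red points are the 3925 genes called higher in hda9, blue points the 3350 called lower and grey points the 13319 not called. Circled are HDA9, AT5G35935, AT2G47780, ST2A, ESM1, RBCS1B, XTH15, CCA1 and MRN1.

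Calls in either direction were spread unevenly over expression levels. With genes binned by their mean in WT at 22 °C, whose libraries are not part of the comparison, 34.1% of the 7251 genes at 1000 or more were higher in hda9 and 12.8% lower, with a median log2 difference of 0.09. Of the 9399 genes between 100 and 1000, 12.6% were higher and 19.6% lower (median -0.05). Of the 3578 genes between 10 and 100, 6.74% were higher and 15.2% lower (median -0.15). Among the 355 genes between 1 and 10, 6.48% were higher and 10.1% lower, and only 11 genes lay under 1. Power to call a gene also grows with its level, so the shares are not rates of response. The gene groups below were not matched for level, so 19.1% higher may be too low a reference for groups of highly expressed genes. The scale of the libraries differed slightly: the values of all tested genes summed to 41175881 to 41729197 in hda9 libraries, against 38649275 to 39379267 in WT libraries.

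The complex member HOS15 and the histone deacetylases showed no common direction. Of 15 tested genes on this list, HDA9 included, 3 were higher, 3 lower and 9 not called, with a median log2 difference of 0.00. POWERDRESS was dropped from the list because its symbol did not match the annotation, so its transcript is not described here. HDA14, a class II deacetylase, had 899, 815 and 874 in hda9, against 618, 640 and 618 in WT. The groups did not overlap, and the log2 difference was 0.46 (adjusted p 0.000334). HOS15, the WD40 partner, rose by a log2 difference of 0.16 (2367, 2397 and 2359 in hda9, against 2078, 2209 and 2069 in WT, adjusted p 0.0117). For the class I relatives HDA6 and HDA19 the log2 differences were -0.02 (adjusted p 0.825) and -0.12 (adjusted p 0.0624). Without WT replicate 1 the number of higher genes on this list was 5. None of 6 genes for H2A.Z and for the SWR1 complex that loads it was called by limma, with log2 differences from -0.22 to 0.12, and 0 were called by edgeR, by DESeq2 or at an unadjusted p under 0.05, with 1 higher without hda9 replicate 2. The counts therefore give no transcript-level change in this machinery that passed the test, while protein and chromatin occupancy were not measured.

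The auxin-synthesis gene YUC8 and most of the tested auxin-response genes were lower in hda9. YUC8, the flavin monooxygenase that makes auxin downstream of PIF4, had 346, 401 and 331 in hda9, against 831, 807 and 861 in WT. Every hda9 library was under the lowest WT library, and the log2 difference was -1.22 (SE 0.16, adjusted p 1.79e-05), 2.32-fold lower. Its relatives YUC9 and YUC2 also fell, YUC9 with 105, 97 and 136 in hda9 against 187, 162 and 188 in WT (log2 difference -0.68, adjusted p 0.0028), and YUC2 with 137, 123 and 131 in hda9 against 187, 172 and 177 in WT (-0.45, adjusted p 0.00698). YUC5 went the other way. It had 81.6, 85.4 and 61.9 in hda9, against 38.2, 36.9 and 44 in WT, without overlap (log2 difference 0.92, adjusted p 0.00151). TAR2, an aminotransferase one step before the YUCCA enzymes, rose too (273, 276 and 266 in hda9, against 213, 149 and 185 in WT, log2 difference 0.59, adjusted p 0.000984). In all, 4 of the 13 tested synthesis genes were higher and 3 lower, so the list as a whole had a median of 0.23 although its warm-induced member YUC8 fell.

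Of the 23 tested auxin-response genes 17 were lower in hda9 and none was higher, with a median log2 difference of -0.63; edgeR, DESeq2 and an unadjusted p under 0.05 also gave 0 higher genes. Leaving out 1 library at a time gave 15 to 18 lower genes, and 1 higher gene without WT replicate 3. IAA29, an Aux/IAA repressor gene that auxin and PIF4 switch on, had 612, 641 and 603 in hda9, against 1766, 1433 and 1683 in WT. The hda9 libraries agreed closely and were all far under WT (log2 difference -1.39, SE 0.10, adjusted p 4.13e-08). IAA19, a relative that acts in hypocotyl growth, had 289, 275 and 323 in hda9, against 901, 674 and 911 in WT (-1.47, SE 0.16, adjusted p 2.42e-06). IAA6 was low in both groups and lower in hda9, with 16.2, 18.8 and 15.1, against 88.7, 47.2 and 75.4 in WT (-1.97, SE 0.25, adjusted p 1.04e-05). WT replicate 2 was the lowest WT library for these 3 genes and still stood above every hda9 library.

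The SAUR genes encode small auxin-induced proteins that promote cell expansion. SAUR22 had 187, 217 and 257 in hda9, against 569, 357 and 549 in WT (log2 difference -1.14, adjusted p 0.000215), and SAUR15 had 14.6, 8.68 and 8.3 in hda9, against 35.5, 29.3 and 44 in WT (-1.71, adjusted p 3.42e-05). Neither showed overlap between the groups. SAUR19, SAUR21 and SAUR23 fell by 0.93, 0.79 and 0.81 on the log2 scale, whereas SAUR24 differed by -0.45 with an adjusted p of 0.127. SAUR19 to SAUR24 are near-identical neighbours, so their reads may have been shared or dropped as not unique. GH3.2 and GH3.3, enzymes that conjugate auxin to amino acids, were lower as well, GH3.2 with 361, 428 and 291 in hda9 against 584, 886 and 611 in WT (-0.94, adjusted p 0.000648). The remaining members that did not pass were IAA1, GH3.1, GH3.5, DFL1 and LBD29.

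**Figure D2:**
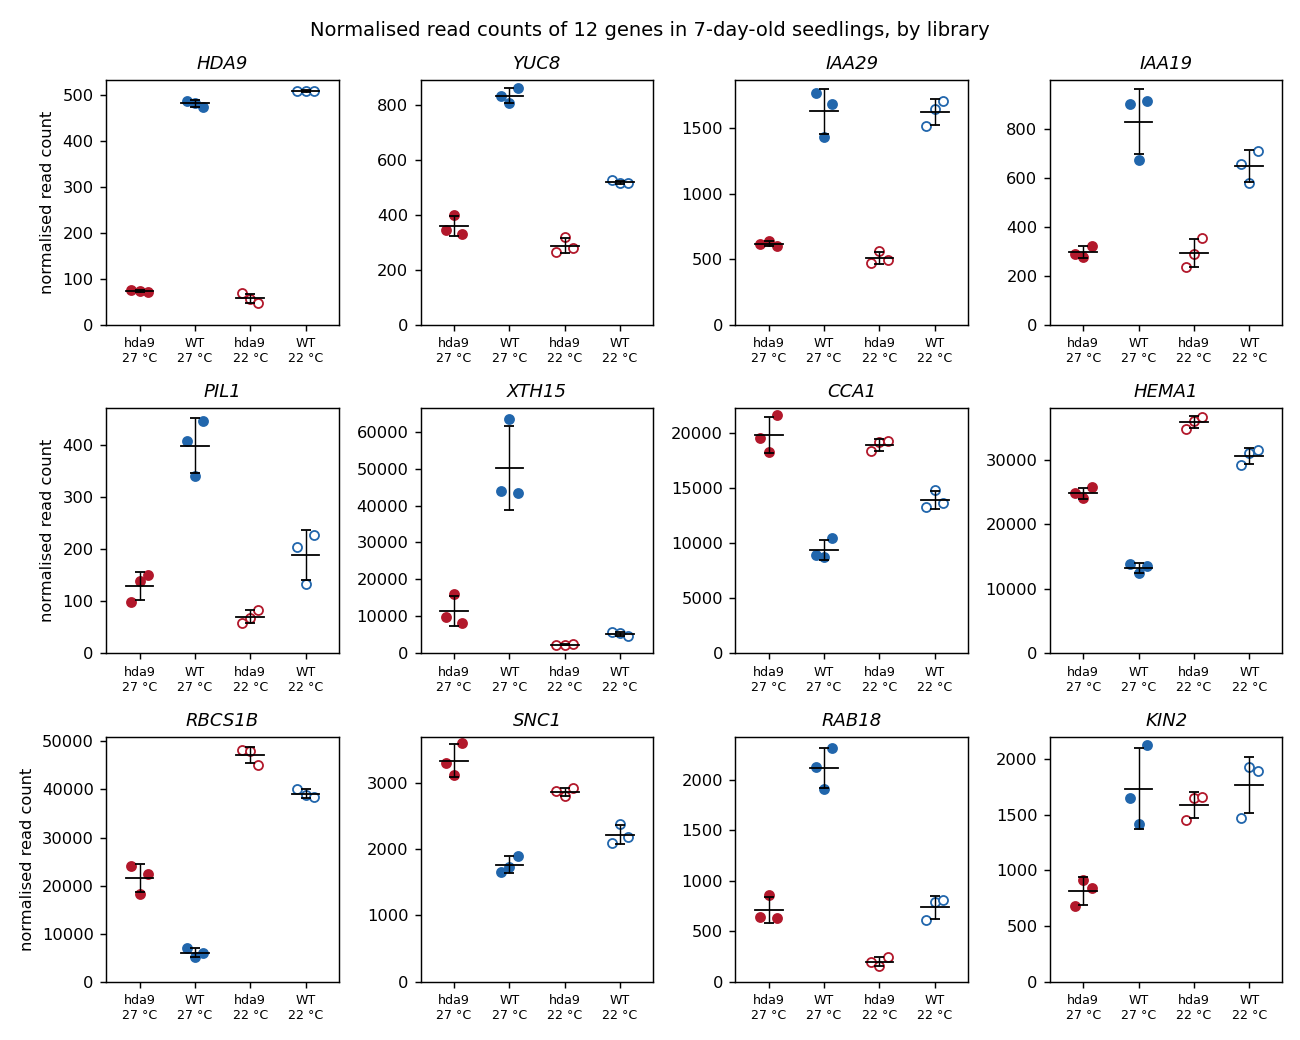
Normalised read counts of 12 genes in the 7-day-old libraries of hda9 (red) and WT (blue) at 27 °C (filled) and 22 °C (open); each point is 1 library, lines are the mean and bars ± SD of 3 libraries. HDA9, YUC8, IAA29, IAA19, PIL1, XTH15, RAB18 and KIN2 are lower in all hda9 libraries at 27 °C than in all WT libraries, and CCA1, HEMA1, RBCS1B and SNC1 are higher.

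Light signalling genes and direct PIF targets also held many falls: 13 of 23 tested genes were lower and 6 higher, with a median of -0.36. PIF4 had 5230, 6160 and 5609 in hda9, against 7767, 7939 and 8582 in WT. The 2 groups were separate, and the log2 difference of -0.52 had an SE of 0.09 and an adjusted p of 0.000191. XTH15, a xyloglucan-remodelling enzyme of growing cell walls, had 9942, 16101 and 8319 in hda9, against 44059, 63293 and 43328 in WT. Replicate 2 was the highest in both groups, and the log2 difference was -2.17 (SE 0.24, adjusted p 2.87e-06), 4.49-fold lower. PIL1, a shade-induced bHLH gene, had 99.3, 140 and 150 in hda9, against 408, 342 and 447 in WT (-1.62, SE 0.26, adjusted p 0.000114).

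The homeobox genes of the shade response fell in parallel. HB-2, known as ATHB2, had 1943, 2148 and 2216 in hda9, against 3960, 3329 and 4476 in WT (log2 difference -0.89, adjusted p 4e-06). HB4 had 120, 161 and 127 in hda9, against 367, 313 and 393 in WT (-1.40, adjusted p 5.96e-07). All hda9 libraries of both genes lay under all WT libraries. FHL, which carries phytochrome A into the nucleus, fell with its cargo: FHL had 162, 230 and 167 in hda9 and 568, 572 and 579 in WT (-1.64, adjusted p 1.92e-06), and the PHYA transcript had a log2 difference of -0.51 (adjusted p 0.000167). PRE5 and PRE6, growth-promoting helix-loop-helix proteins, had differences of -1.41 and -0.55, and CKX5, a cytokinin-degrading enzyme, of -1.06, all 3 called.

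The genes that rose on this list were photoreceptor and light-signalling components. PIF7 had 235, 232 and 221 in hda9, against 151, 146 and 121 in WT (log2 difference 0.72, adjusted p 4.78e-05). HY5, a bZIP factor that opposes PIF4, had 1207, 893 and 1009 in hda9, against 658, 544 and 662 in WT (0.73, adjusted p 0.000183). PHYB, the phytochrome that senses both red light and temperature, had 5993, 6073 and 6472 in hda9, against 4819, 4576 and 5014 in WT (0.36, adjusted p 0.000541). The groups of PIF7, HY5 and PHYB did not overlap. COP1, the ubiquitin ligase that removes HY5, had a difference of 0.34 (adjusted p 0.00204). Leaving out 1 library at a time gave 11 to 12 lower and 4 to 6 higher genes on the list.

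Growth-hormone genes beyond auxin moved in both directions. On the gibberellin and brassinosteroid list 8 of 22 tested genes were lower and 4 higher (median -0.14), and the number of higher genes was 2 without hda9 replicate 1, hda9 replicate 3 or WT replicate 2. GA20OX1, an enzyme of gibberellin synthesis active in stem and hypocotyl growth, had 44.6, 34.7 and 36.2 in hda9, against 92.8, 75.6 and 110 in WT (log2 difference -1.24, SE 0.21, adjusted p 0.000179). RGL1, a DELLA repressor of gibberellin responses, fell as well (139, 188 and 149 in hda9, against 285, 283 and 253 in WT, -0.79, adjusted p 3.71e-05). DWF4, a rate-limiting enzyme of brassinosteroid synthesis, was lower by a log2 difference of -0.43 (adjusted p 0.00139). The brassinosteroid receptor gene BRI1 was higher: 10303, 10290 and 10064 in hda9, against 6353, 7863 and 8022 in WT (0.47, adjusted p 0.000282).

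Cell-wall loosening genes were split by member. Of 19 tested genes 7 were lower and 5 higher, with a median of -0.01. The falling members were the expansins EXPA4, EXPA5, EXPA8 and EXPA11 and the xyloglucan enzymes XTH4, XTH17 and XTH33. EXPA5 had 234, 248 and 257 in hda9, against 785, 531 and 724 in WT (log2 difference -1.44, SE 0.18, adjusted p 8.6e-06), and XTH17 had 329, 436 and 402 in hda9, against 1105, 991 and 1082 in WT (-1.45, SE 0.14, adjusted p 8.55e-07). EXPA11 was 2.15-fold lower (601, 527 and 492 in hda9, against 1231, 1160 and 1088 in WT, adjusted p 2e-06). The touch- and stress-inducible XTH23 instead rose to 3590, 4231 and 6339 in hda9, against 1410, 1723 and 1697 in WT (1.51, SE 0.26, adjusted p 0.000224). The primary-wall cellulose synthases CESA1 and CESA6 rose slightly, by log2 differences of 0.28 and 0.37. Among fasciclin-like arabinogalactan proteins, a cell-surface family chosen after its values were seen, 8 of 16 were lower and 1 higher, and 5 were lower without hda9 replicate 3. FLA1 had 508, 585 and 497 in hda9, against 1453, 1269 and 1408 in WT (-1.38, adjusted p 1.23e-09).

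Several clock genes were higher in hda9, with RVE1, CCA1 and LHY, which peak around dawn, ahead of the others in size. Of 17 tested clock genes 8 were higher and 1 lower, with a median of 0.29, and 8 were also higher with any 1 of the 6 libraries left out. CCA1, a MYB repressor that peaks at dawn, had 19563, 18307 and 21614 in hda9, against 8944, 8776 and 10480 in WT. The lowest hda9 library was well above the highest WT library, and the log2 difference was 1.08 (SE 0.08, adjusted p 3.47e-08), 2.11-fold higher. Its partner LHY had 20849, 17479 and 20120 in hda9, against 10015, 9426 and 10049 in WT (0.98, adjusted p 1.03e-07). The related MYB genes RVE8 and RVE1 rose by 0.83 and 1.14, RVE1 with 12160, 9813 and 14286 in hda9 against 5257, 4590 and 6545 in WT (adjusted p 0.000137). LNK1 and LNK2, coactivators of the RVE proteins, rose by 0.71 and 0.47, and ELF3 and ZTL by 0.36 and 0.40. The later-phased TOC1 (-0.21, adjusted p 0.128), GI, PRR5, FKF1, ELF4 and LUX were not called, nor were the morning genes PRR9 and PRR7. The only clock gene called lower was PRR3, which lost the call without hda9 replicate 1 or 3 or WT replicate 2 or 3. With 1 time of day, a change of phase and a change of level cannot be told apart.

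Several chlorophyll-synthesis genes and part of the photosynthetic set were higher in hda9. On this list 9 of 32 tested genes were higher (28.1%) and 1 lower (3.12%), with a median of 0.12. Among all genes with a mean of 1000 or more in WT at 22 °C, 34.1% were higher and 12.8% lower. The list was not matched for expression level. HEMA1, glutamyl-tRNA reductase at the start of tetrapyrrole synthesis, had 24760, 24008 and 25703 in hda9, against 13764, 12401 and 13587 in WT (log2 difference 0.91, SE 0.06, adjusted p 1.65e-08). CHLH, a subunit of the magnesium chelatase, had 92027, 82506 and 92489 in hda9, against 45208, 43991 and 48533 in WT (0.95, adjusted p 1.78e-06). Chlorophyllide a oxygenase, listed as CH1, had 11865, 10489 and 12229 in hda9, against 6708, 5672 and 6709 in WT (0.86, adjusted p 3.22e-07). In each of these 3 the hda9 libraries were all above the WT libraries, and GUN4, an activator of the chelatase, followed with a log2 difference of 0.72.

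RBCS1B, one of the small-subunit genes of Rubisco, rose most on the list: 24022, 18285 and 22392 in hda9, against 7013, 5087 and 6005 in WT (log2 difference 1.84, SE 0.14, adjusted p 5.5e-08), 3.58-fold higher. Its more abundant paralog RBCS1A did not pass (0.29, adjusted p 0.102), and reads shared by the near-identical RBCS genes may have been dropped. The Rubisco activase gene RCA was higher by 0.69 and GLK2, a transcription factor for chloroplast genes, by 0.68 (6231, 5106 and 6548 in hda9, against 3987, 2935 and 4342 in WT, adjusted p 0.00109). None of 9 light-harvesting LHCB genes was called by limma or edgeR, and 1 was lower by DESeq2 and at an unadjusted p under 0.05. The 1 lower gene, LHCA2, lost the call without WT replicate 1, without hda9 replicate 1 or without hda9 replicate 3. In the plastid transcriptionally active (PTAC) family, chosen after its values were seen, 9 of 15 genes were higher and none lower (1 lower without WT replicate 2 and at an unadjusted p under 0.05, and 0 by edgeR and DESeq2), PTAC2 with 1838, 1636 and 1714 in hda9 against 1112, 1039 and 1108 in WT (0.67, adjusted p 6.72e-08). In whole seedlings, fewer cells of a type and less RNA per cell cannot be told apart. The green-tissue markers were not uniform: RBCS1A had 443150, 402124 and 447180 in hda9 and 403676, 304526 and 352832 in WT, and LHCB3 had 100133, 122800 and 93117 in hda9 and 137237, 117632 and 112418 in WT, overlapping. Of 12 root markers 1 was higher and 3 lower, and their summed values were 8079 to 8566 in hda9 and 8695 to 9446 in WT. The part of tissue proportions in the results was not tested.

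**Figure D3:**
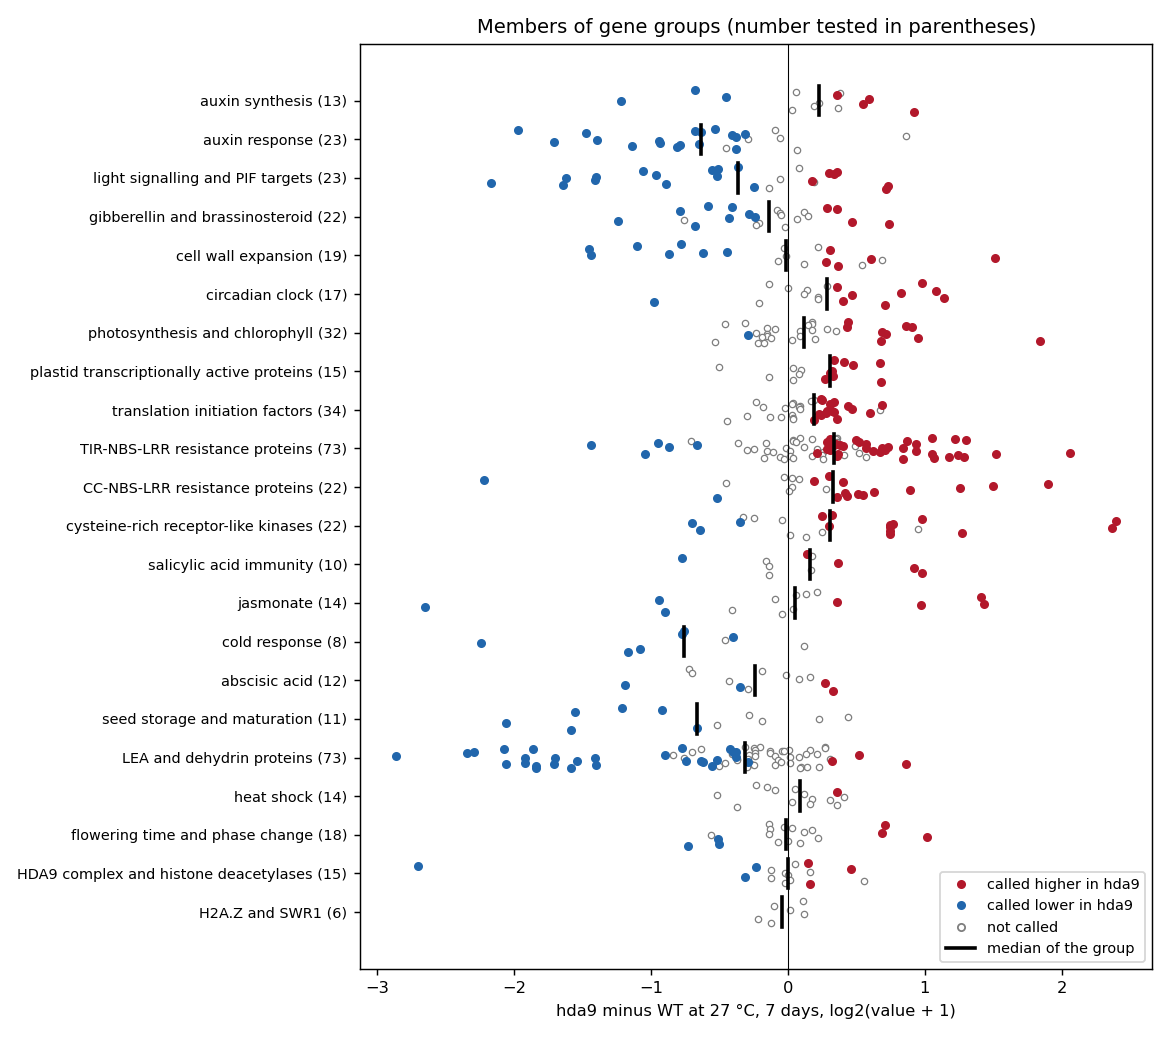
Log2 difference (hda9 minus WT at 27 °C, 7 days) of every tested member of 22 gene groups, with the number tested in parentheses. Red and blue points are members called higher and lower in hda9, open points are not called, and bars are group medians; auxin response, cold response, seed and LEA groups sit mostly left of 0, clock, PTAC and disease-resistance groups mostly right.

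Many immune receptor genes were higher in hda9. The families in this paragraph were chosen by product name after values were seen. Of 73 tested TIR-NBS-LRR genes, which encode intracellular receptors for pathogen effectors, 36 were higher and 5 lower, with a median of 0.34. The summed value of the family was 61012 to 65927 in hda9 libraries, against 38114 to 42913 in WT libraries. Leaving out 1 library at a time gave 33 to 38 higher genes and 2 to 4 lower ones, with 2 lower genes without WT replicate 1 or WT replicate 2. Of 22 CC-NBS-LRR receptor genes 13 were higher and 2 lower (median 0.33, summed 27768 to 29504 in hda9, against 18797 to 20713 in WT). Of 22 cysteine-rich receptor-like kinases (CRK) 12 were higher and 3 lower (median 0.31, summed 18424 to 19217 in hda9, against 12351 to 13579 in WT). Many of these genes lie in arrays of similar copies, and the values of single members are uncertain where reads could not be placed.

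SNC1, a TIR-NBS-LRR gene whose overactivity causes autoimmunity and whose effect is weakened by warmth, had 3304, 3113 and 3601 in hda9, against 1661, 1734 and 1905 in WT (log2 difference 0.92, SE 0.08, adjusted p 1.65e-07). WRR4, which gives resistance to white rust, had 1385, 1372 and 1536 in hda9, against 609, 619 and 606 in WT (1.22, adjusted p 1.65e-08). AT5G46450 had 2666, 2649 and 2700 in hda9, against 1008, 1167 and 1102 in WT (1.29, adjusted p 4.15e-09). In all 3 genes the hda9 libraries were above every WT library. Among the CC-NBS-LRR genes RPP8, a downy mildew resistance gene, rose by 0.63 and AT1G58848 by 1.50 (1157, 1058 and 1173 in hda9, against 434, 375 and 389 in WT, adjusted p 7.97e-10). AT1G51480 was an exception, with 2.31, 1.45 and 3.02 in hda9 against 13.6, 12.3 and 16.1 in WT (-2.22, called). CRK21 had 725, 592 and 700 in hda9, against 281, 249 and 303 in WT (1.27, adjusted p 2.19e-08).

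Part of the salicylic acid pathway was higher in hda9. Of 17 listed genes, which include SNC1, 10 passed the filter on low values, of which 4 were higher and 1 lower (median 0.16). The lower gene, ALD1, kept its call without WT replicate 3 and lost it without any 1 of the other 5 libraries. CBP60G, a transcription factor for salicylic acid synthesis, had 221, 188 and 254 in hda9, against 94.2, 138 and 104 in WT (log2 difference 0.98, adjusted p 0.000266), and PAD4, a signalling partner of TIR-type receptors, rose by 0.37 (adjusted p 0.00595). The effector genes PR1, PR2 and PR5 and the regulators SARD1 and FMO1 were under the filter of 10 in 3 libraries and were not tested.

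Jasmonate genes moved in both directions. ST2A, a sulfotransferase that sulfates 12-hydroxyjasmonate, had 1670, 2280 and 1409 in hda9, against 10724, 12635 and 9869 in WT. The groups were far apart (1786 ± 447 in hda9 and 11076 ± 1416 in WT), and the log2 difference was -2.65 (SE 0.16, adjusted p 5.8e-09), 6.29-fold lower. OPR3, a reductase of jasmonate synthesis, fell too (247, 314 and 273 in hda9, against 577, 510 and 506 in WT, -0.94, adjusted p 1.39e-06). AOC2, an allene oxide cyclase earlier in the same route, rose to 501, 401 and 459 in hda9, against 171, 161 and 170 in WT (1.43, adjusted p 1.36e-07), and LOX2, its chloroplast lipoxygenase, by 0.97. Altogether 4 of the 14 tested jasmonate genes were higher (28.6%) and 3 lower (21.4%), beside 19.1% and 16.3% over all genes (median 0.05). By edgeR and by DESeq2 4 were higher and 2 lower. Without hda9 replicate 3 the numbers were 3 higher and 3 lower, and without any other single library 4 higher and 2 lower.

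Several glucosinolate genes moved strongly. CYP83A1, an enzyme of the aliphatic glucosinolate core, had 8.47, 14.5 and 9.81 in hda9, against 61.4, 50.1 and 53.7 in WT (log2 difference -2.26, adjusted p 7.43e-06). MAM1, which elongates the methionine chain for these compounds, had 27.7, 44.9 and 39.2 in hda9, against 147, 146 and 163 in WT (-2.03, adjusted p 5.19e-06). Both were separate from WT in every library, while 4 of the 6 tested genes of the list were not called and 6 more were under the filter. ESM1, which directs glucosinolate breakdown towards isothiocyanates, had 8150, 8404 and 8305 in hda9, against 2468, 2008 and 2145 in WT (1.91, SE 0.11, adjusted p 3.53e-09), 3.77-fold higher.

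Cold-inducible genes were lower in hda9. Of the 8 tested genes on the cold list 6 were lower and none higher (median -0.76), with 0 higher also by edgeR, DESeq2 and an unadjusted p under 0.05, and 5 to 6 were lower with 1 library left out. KIN2 had 677, 916 and 846 in hda9, against 1654, 1414 and 2128 in WT (log2 difference -1.08, SE 0.18, adjusted p 0.000166). COR47, a dehydrin, had 12239, 13268 and 11683 in hda9, against 20971, 21576 and 20398 in WT (-0.76, adjusted p 0.000337), and RD29A had 114, 75.3 and 71.7 in hda9, against 217, 159 and 209 in WT (-1.17, adjusted p 0.000369). No hda9 library reached the lowest WT library in any of them. On the abscisic acid list 2 of 12 genes were higher and 2 lower, with 1 higher when any library other than WT replicate 2 was left out and 1 lower without WT replicate 1 or hda9 replicate 3. RD29B, an abscisic acid reporter gene, was lower (569, 605 and 495 in hda9, against 1142, 1250 and 1413 in WT, -1.19, adjusted p 2.49e-05).

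Seed maturation genes still detectable at 7 days were also lower. Of 25 listed genes 11 passed the filter, and 6 of these were lower and none higher (median -0.66), with 0 higher also by edgeR, DESeq2 and an unadjusted p under 0.05; without hda9 replicate 3 the numbers were 3 lower and 1 higher. RAB18, a dehydrin of seeds and water stress, had 640, 858 and 635 in hda9, against 2123, 1913 and 2318 in WT (log2 difference -1.58, SE 0.16, adjusted p 7.43e-07). OLEO2, an oil-body protein of seeds, had 26.9, 43.4 and 8.3 in hda9, against 92.8, 90.7 and 95.6 in WT (-2.06, adjusted p 0.00224), and EM6, an embryonic LEA protein, had 30.8, 73.8 and 24.1 in hda9, against 94.2, 108 and 144 in WT (-1.55, adjusted p 0.00513). Replicate 3 was the lowest and replicate 2 the highest hda9 library for OLEO2 and EM6. Late embryogenesis abundant (LEA) and dehydrin proteins were matched by product name alone and chosen after their values were seen. How many of them are seed maturation proteins was not checked. In this family 28 of 73 tested genes were lower and 3 higher, and 21 to 27 were lower with 1 library left out. The median was -0.31, and the summed values were 52797 to 53991 in hda9, against 65098 to 67264 in WT. AT2G42560 had 33.1, 63.7 and 11.3 in hda9, against 221, 172 and 269 in WT (-2.86, adjusted p 0.00018).

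The seed storage genes themselves varied between libraries of a group. Of the seed markers CRA1, CRC, SESA1 and OLEO1 only CRA1 passed the filter, so a difference by genotype was not tested for the others. CRA1, a cruciferin, had 20, 333 and 7.55 in hda9, against 23.2, 41.6 and 172 in WT, and the cruciferin gene CRC had 3.08, 7.24 and 2.26 in hda9, against 15, 4.72 and 138 in WT. The highest values were thus in hda9 replicate 2 and WT replicate 3, and OLEO1 was also highest there (11.6 in hda9 replicate 2 and 18.8 in WT replicate 3) while SESA1 was at 0 in every hda9 library and at most 2.79 in WT. The part of seed tissue in the lower LEA genes was not tested. Markers of flowers and pollen were not uniform: AP1, AP3, AG and VGD1 were at 3.78 or under in all 6 libraries, whereas PI and SEP3 were well above the filter in all 6. The meristem markers WUS and CLV3 were at most 1.89 and 3.08. On the meristem and floral list 3 members, PI, SEP3 and STM, passed the filter, and 2 of them were higher in hda9 (list median 0.37). SEP3, a MADS-box gene of floral organs, had 418, 443 and 430 in hda9, against 330, 250 and 280 in WT (log2 difference 0.59, adjusted p 0.0169), and STM, a homeobox gene of the shoot meristem, had 232, 220 and 233 in hda9, against 198, 169 and 166 in WT (0.37, adjusted p 0.0131). The groups of both did not overlap, and 1 gene of the list was higher without WT replicate 2 or without WT replicate 3. PI had 383, 314 and 314 in hda9 and 308, 347 and 327 in WT, which overlapped. The part of meristem tissue in the results was not tested.

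Flowering genes split evenly, with 3 higher and 3 lower of 18 tested (median -0.01). SOC1, a floral integrator, had 186, 156 and 201 in hda9, against 99.6, 110 and 126 in WT (log2 difference 0.69, adjusted p 0.000912), and FLC, a floral repressor, had 536, 612 and 660 in hda9, against 823, 939 and 804 in WT (-0.51, adjusted p 0.000574). AGL19, a flowering gene reported as an HDA9 target, had 20, 18.8 and 20.4 in hda9, against 8.19, 8.5 and 11.2 in WT (1.02, SE 0.32, adjusted p 0.0186). Its groups did not overlap, but the values are near the filter and the call was lost without WT replicate 1, WT replicate 2, hda9 replicate 1 or hda9 replicate 3, with an adjusted p of at most 0.0602. Without WT replicate 2 or hda9 replicate 3 only 1 gene of the list was higher. FT was not tested. Among 14 heat-shock genes 1 was higher, HSP70, and none lower (median 0.09), while edgeR and DESeq2 each called 2 higher and 1 lower and 2 were lower at an unadjusted p under 0.05; HSP70 kept its call without WT replicate 3 and without hda9 replicate 1 and lost it without any of the other 4 libraries.

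The remaining lists had 4 higher and 1 lower of 15 senescence genes, 2 and 3 of 8 starvation genes, 1 and 2 of 16 genes of seed reserve mobilisation, 3 and 0 of 13 iron genes, 0 and 1 of 6 flavonoid genes, 2 and 2 of 13 cell-division genes, and 0 and 1 of 12 ethylene and cytokinin genes. Several of these counts moved with 1 library left out. The senescence and flavonoid lists had 0 lower genes without WT replicate 1, WT replicate 2, hda9 replicate 1 or hda9 replicate 3, and 2 senescence genes were lower without WT replicate 3. The starvation list had 1 higher gene without WT replicate 1 or hda9 replicate 2. Without WT replicate 2 or hda9 replicate 3 the iron list had 1 higher gene, the starvation list 1 lower gene and the reserve list 2 higher genes. The reserve list had 0 lower genes without WT replicate 2 or hda9 replicate 1, and 1 without WT replicate 3 or hda9 replicate 3. The cell-division list had 1 lower gene without WT replicate 1, hda9 replicate 1 or hda9 replicate 3, and 1 higher without hda9 replicate 3. The ethylene and cytokinin list had 2 lower genes without WT replicate 2 and 1 higher without WT replicate 1. SEN1, a dark-induced gene, had 52707, 63237 and 49003 in hda9, against 88298, 99028 and 86643 in WT (log2 difference -0.74, adjusted p 0.00128). Cytosolic and organelle ribosomal proteins, a family chosen after its values were seen, had 47 higher and 40 lower of 314 genes, with 23 lower without WT replicate 1.

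Among called genes whose groups did not overlap and whose mean reached 50, AT5G35935 had the largest rise. It is an uncharacterised locus annotated as a pseudogene, with 819, 841 and 829 in hda9, against 23.2, 16.1 and 21.6 in WT, a log2 difference of 5.30 (SE 0.12, adjusted p 6.58e-15) or 39.4-fold. The hda9 libraries were close to each other and far above WT, and the locus was high in pif4 as well (log2 difference from the same WT libraries 5.70). AT2G45135, a RING-type protein, had 99.3, 107 and 89 in hda9, against 9.55, 9.45 and 16.1 in WT (3.01, adjusted p 3.74e-06), and was at WT level in pif4, with 8.42, 15.8 and 11.6. MRN1, marneral synthase of triterpene metabolism, had 358, 525 and 396 in hda9, against 80.5, 86 and 50.2 in WT (2.56, SE 0.46, adjusted p 0.000317).

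The other large rises were CRK30 (176, 174 and 131 in hda9, against 25.9, 32.1 and 30 in WT, log2 difference 2.40), BGLU28 (2.24), AT5G41740 (2.06), AT3G28270 (2.03), EARLI1 (1.93), ACS7 (1.92), ESM1, AT1G58807 (1.90) and RBCS1B. BGLU28 is a beta-glucosidase induced by sulfur shortage, with 149, 172 and 143 in hda9, against 23.2, 44.4 and 31.4 in WT. ACS7, an ethylene-synthesis enzyme, had 278, 245 and 490 in hda9, against 75, 87.9 and 90.7 in WT. Of the 12 largest rises 3 are thus genes of the immune receptor families above, and 1 is a Rubisco gene.

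The largest falls were AT2G47780, AT4G35720, AT5G44440, AT3G21320, AT2G01422, AT2G42560, AT3G58450, HDA9, ST2A, AT1G04560, AT5G35525 and AT1G71250. AT2G47780, a rubber elongation factor family protein, had 35.4, 20.3 and 16.6 in hda9, against 288, 369 and 297 in WT (log2 difference -3.73, adjusted p 0.000293), 13.3-fold lower. AT5G44440, a berberine-bridge type oxidase, had 84.7, 119 and 96.6 in hda9, against 790, 899 and 1156 in WT (-3.23, adjusted p 0.00141). AT2G01422, a noncoding RNA, had 152, 88.3 and 166 in hda9, against 1186, 979 and 1164 in WT (-3.07, adjusted p 0.00291). AT4G35720 had 31.6, 30.4 and 9.81 in hda9, against 292, 433 and 100 in WT. Groups without overlap were a condition for entering the largest rises and falls. AT1G04560 lost its call without hda9 replicate 3 (adjusted p 0.0819). The strand setting of the counting is not stated, so values of overlapping and antisense genes are uncertain.

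At 22 °C fewer genes were called between hda9 and WT. The WT libraries held 29804170, 21906850 and 28840750 reads in genes at 22 °C, against 28868332, 40914088 and 55503049 at 27 °C. Those of hda9 overlapped in size between temperatures. The tested genes were chosen by their values at 27 °C. The part of depth and of this choice in the lower count was not tested. There 4243 genes passed (20.6%), 2091 higher (10.2%) and 2152 lower (10.4%), and of the 3925 genes higher at 27 °C 1595 were also higher at 22 °C, which is 40.6% of the 27 °C list and 76.3% of the 22 °C list. Of the 3350 lower genes 1446 were shared, 43.2% of the 27 °C list and 67.2% of the 22 °C list. The genes called at 27 °C had the same sign at 22 °C in 89.8% of cases, beside 74.8% over all genes. Across the 20594 genes, which are not independent replicates, the 2 differences had a Pearson correlation of 0.66. They share no library.

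A direct test of the difference between the effects at 27 and 22 °C called 768 genes (3.73%), 608 with a more positive effect at 27 °C (2.95%) and 160 with a more negative one (0.777%). This count is sensitive to single libraries, with 329 called without hda9 27 °C replicate 3, and the count was 1213 when the fit had a term for replicate number. The genes given by name below kept their call with any 1 of the 12 libraries left out. On the photosynthesis and chlorophyll list 9 of 32 genes had a more positive effect at 27 °C, and on the clock list 5 of 17. RBCS1B at 22 °C had 48199, 47972 and 45168 in hda9 and 40110, 38923 and 38391 in WT, so that its log2 difference was 0.27 there and 1.84 at 27 °C (difference of effects 1.57, adjusted p 0.000765). HEMA1 had 34804, 35937 and 36686 in hda9 at 22 °C and 29183, 31024 and 31546 in WT (0.23 at 22 °C, difference of effects 0.68, adjusted p 0.000765). For CCA1, 18341, 19205 and 19326 in hda9 stood against 13337, 14815 and 13620 in WT at 22 °C (0.45, difference of effects 0.63, adjusted p 0.00414). Both RBCS1B and HEMA1 were thus lower at 27 than at 22 °C in either genotype, and hda9 lay closer to the 22 °C values than WT did.

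XTH23 changed sign between temperatures. It had 183, 125 and 190 in hda9, against 308, 364 and 381 in WT, at 22 °C (log2 difference -1.10, adjusted p 0.00649) and was higher in hda9 at 27 °C (difference of effects 2.61, adjusted p 0.00124). EXPA5 was close between genotypes at 22 °C, with 362, 396 and 495 in hda9 and 383, 470 and 530 in WT (difference of effects -1.30, adjusted p 0.00773), and XTH17 had a difference of effects of -1.11 (adjusted p 0.00556). Immune receptor genes were frequent too: 15 of the 73 TIR-NBS-LRR genes had a more positive effect at 27 °C, SNC1 by 0.55 (adjusted p 0.00946) and WRR4 by 0.89 (adjusted p 0.000906). On the auxin-response list no gene passed this test with limma or edgeR, 1 did with DESeq2, and 2 had an unadjusted p under 0.05. There 13 of the 23 genes were lower at 22 °C and 17 at 27 °C, with medians of -0.32 and -0.63.

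**Figure D4:**
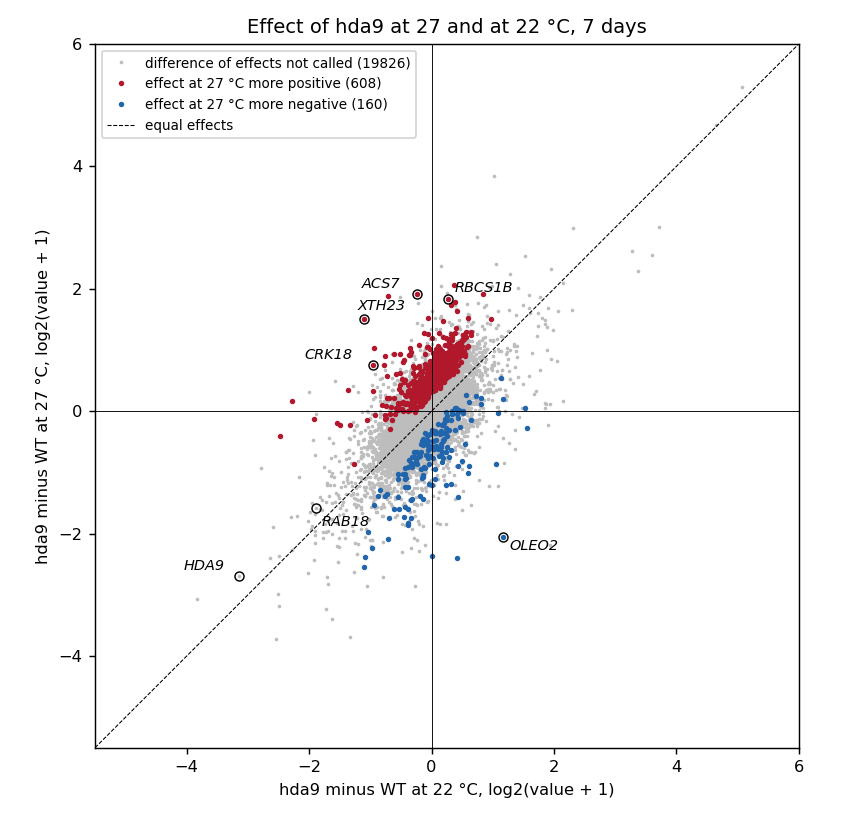
Log2 difference of hda9 from WT at 27 °C (vertical axis) against that at 22 °C (horizontal axis) for 20594 genes at 7 days. Red and blue points are the 608 and 160 genes whose effects differed between temperatures with the 27 °C effect more positive or more negative; RBCS1B, ACS7, XTH23 and CRK18 lie above the dashed line of equal effects, OLEO2 below it, and HDA9 and RAB18 near it.

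At 2 days and 27 °C, 6190 of the same genes were called (30.1%), 3124 higher in hda9 (15.2%) and 3066 lower (14.9%). Of the 3925 higher genes 1568 were shared (39.9% of the 7-day list and 50.2% of the 2-day list), and of the 3350 lower genes 1224 (36.5% and 39.9%). The Pearson correlation across the 20594 genes was 0.35, and 73.6% of the genes called at 7 days had the same sign at 2 days, beside 64.8% over all genes. The difference between ages, tested directly, called 3430 genes (16.7%), of which 1898 had a more positive effect at 7 days (9.22%) and 1532 a more negative one (7.44%).

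The effect on auxin genes differed between the ages. On the auxin-response list 5 genes were higher and 1 lower at 2 days (median 0.09), and 16 of the 23 genes had a more negative effect at 7 days by the direct test. YUC8 had 1095, 1119 and 1223 in hda9 at 2 days, against 815, 803 and 917 in WT (log2 difference 0.44, adjusted p 0.0334), opposite to 7 days (difference of effects -1.66, adjusted p 6.82e-06). IAA29 had 1027, 954 and 1079 in hda9 at 2 days, against 719, 719 and 938 in WT (0.37, difference of effects -1.76, adjusted p 5.56e-07). PIF4 itself was higher in hda9 at 2 days, with 3250, 3863 and 4362, against 1606, 1501 and 2505 in WT (1.06, adjusted p 6.32e-05). HY5 had the reverse pattern, with 264, 276 and 269 in hda9 at 2 days against 393, 446 and 379 in WT (-0.59) and a difference of effects of 1.32 (adjusted p 4.11e-06). All 8 tested cold genes had a more negative effect at 7 days than at 2 days, of which CBF1 and CBF2 did not keep the call in every fit with 1 library left out.

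The pif4 mutant at 27 °C and 7 days was compared with the same 3 WT libraries, so that its differences from WT and those of hda9 share their controls and their likeness is not a result. Of the 20594 genes 5266 (25.6%) were called in pif4 against WT, 2758 higher (13.4%) and 2508 lower (12.2%). Counts of list members in pif4 against WT are to be read against these shares. The direct test of hda9 against pif4 called 6231 genes (30.3%), 3305 higher in hda9 (16.0%) and 2926 lower (14.2%). On the auxin-response list 17 genes were lower in hda9 and 18 in pif4, with medians of -0.63 and -0.82, and in the direct test 14 of the 23 genes were higher in hda9 than in pif4 and 2 lower. IAA29 had 295, 252 and 316 in pif4 (log2 difference from WT -2.50), with hda9 above pif4 by 1.11 (adjusted p 8.74e-07). YUC8 had 242, 301 and 272 in pif4, and hda9 minus pif4 was 0.40 with an adjusted p of 0.0674. For IAA6 hda9 minus pif4 was -0.04 with an adjusted p of 0.919, beside log2 differences from WT of -1.97 in hda9 and -1.93 in pif4.

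The PIF targets separated the mutants further. XTH15 had 3577, 6857 and 3510 in pif4, and hda9 was higher than pif4 by a log2 difference of 1.32 (adjusted p 0.000574). HFR1, a PIF-induced inhibitor of PIF proteins, had 2708, 2812 and 2890 in hda9 and 695, 615 and 701 in pif4, against 3920, 3152 and 3777 in WT. Its log2 difference from WT was -0.36 in hda9, a call that was kept without WT replicate 2 and lost without any 1 of the other 5 libraries, and hda9 minus pif4 was 2.07 (adjusted p 2.43e-08). PHYB was higher than WT in hda9 and lower in pif4 (3433, 3263 and 3465 in pif4), with hda9 minus pif4 at 0.87 (adjusted p 2.26e-07). Photosynthesis genes had the opposite order: 22 of 32 were higher in pif4 than in WT and 9 in hda9, and in the direct test 17 were lower in hda9 than in pif4 and none higher. PORC, a protochlorophyllide reductase, had 2551, 2446 and 2471 in hda9 and 3951, 3538 and 3934 in pif4, against 2017, 1698 and 1784 in WT (hda9 minus pif4 -0.61, adjusted p 1.72e-06).

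For the glucosinolate-related genes hda9 and pif4 lay apart. ESM1 had 1333, 1409 and 976 in pif4 and was lower there than in WT (log2 difference -0.85), and hda9 minus pif4 was 2.76 (adjusted p 2.55e-11). CYP83A1 and MAM1 had log2 differences of -0.13 and -0.40 in pif4, neither called, and hda9 minus pif4 was -2.13 (adjusted p 2.62e-05) for CYP83A1 and -1.63 (adjusted p 8.08e-05) for MAM1. Some clock and immune receptor genes were higher than WT in each mutant. Of the 17 clock genes 8 were higher than WT in hda9 and 5 in pif4, with list medians of 0.29 and -0.01. In the direct test 8 were higher in hda9 than in pif4. CCA1 had 13241, 12735 and 14242 in pif4, a log2 difference from WT of 0.52 (adjusted p 7.93e-05) beside 1.08 in hda9, and hda9 minus pif4 was 0.56 (adjusted p 4.46e-05). Of the 73 TIR-NBS-LRR genes 36 were higher and 5 lower than WT in hda9, and 25 were higher and 1 lower in pif4, with medians of 0.34 and 0.19. In the direct test 25 of them were higher in hda9 than in pif4 and 5 lower, beside 16.0% and 14.2% over all genes. SNC1 was higher than WT by 0.92 in hda9 and by 0.47 in pif4. Of the 11 seed genes 3 were lower in hda9 than in pif4.

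**Figure D5:**
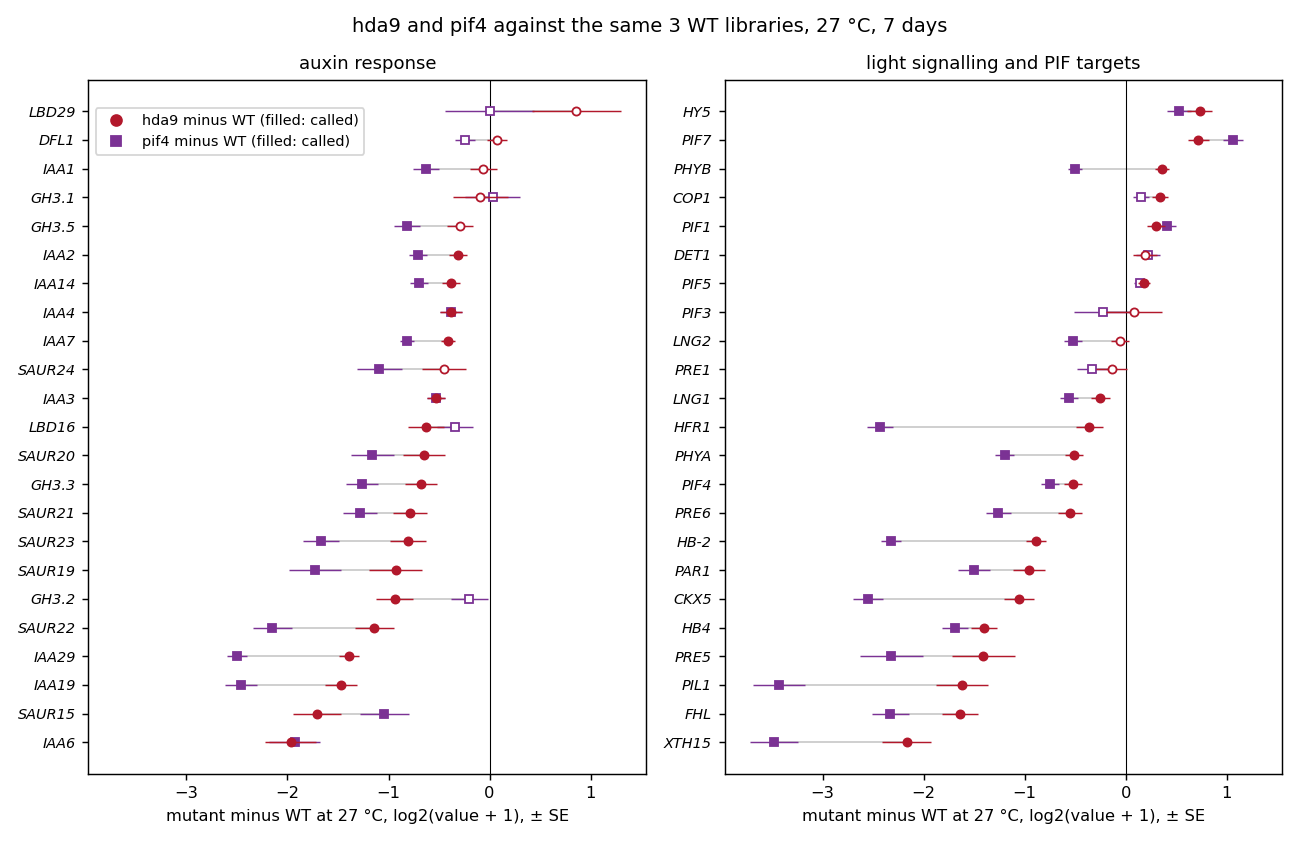
Log2 differences from the same 3 WT libraries at 27 °C, 7 days, for hda9 (red circles) and pif4 (purple squares), with ± SE, for the tested members of the auxin-response list (left) and of the light signalling and PIF target list (right). Filled symbols are called; for IAA29, IAA19, PIL1, HB-2, HFR1 and XTH15 the pif4 value is more negative than the hda9 value, and PHYB lies on opposite sides of 0.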

How the data were processed

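RNA of whole seedlings was sequenced as single reads of 50 bp in 36 libraries (12 groups of 3). Per the submitters' processing notes, FastQC, TopHat2, Bowtie, HTSeq and DESeq were used with the TAIR10 build. The deposited values are a signal per gene: reads counted per gene and scaled by a size factor of their library. Which libraries the authors scaled together, and the strand setting, are not given in the sources used here. Whole reads were recovered for 100% of the deposited values within 0.01 of a whole number, and edgeR on those reads called 7475 genes. Not uniquely placed reads were 6.343 to 7.253% in the 6 compared libraries, ambiguous reads 1.123 to 1.158% and reads outside genes 0.797 to 0.876%; these 5 counting categories were left out. Names came from a reference annotation matching 32835 loci.

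Tests used limma-trend (limma version 3.58.1, R version 4.3.3) with 1 mean per group on log2(value + 1). The 18 libraries of 7-day-old seedlings were fitted together. All 36 were fitted for the difference between ages and for hda9 against WT at 2 days. All p-values were adjusted by the Benjamini-Hochberg method over the 20594 genes. At the filter, 252 genes reached 10 in exactly 3 of the 6 libraries (median mean value 10.6) and 240 in exactly 2 (8.62). Alternatives were edgeR 4.0.16, DESeq2 1.42.0, TMM scaling, a pseudocount of 8, no filter, a filter over all libraries, the compared groups alone, the replicate number as a block, and each library left out. The scripts were tested on simulated data.

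The members and the 26 gene lists (430 of 432 entries kept) were chosen with earlier results of these data known, and 11 families were chosen by product name after values were seen. Genes were named by rule: HDA9, PIF4, YUC8, IAA19, IAA29 and AGL19, the 12 largest rises and 12 falls (called, groups not overlapping, mean of 50 or more), up to 6 called members of each list by smallest p, and the 6 largest in each direction of a difference (called, mean of 50 or more). Other list and family members in the text were chosen after their values were seen. Libraries of hda9 and pif4 at 27 °C with the same replicate number deviated together across genes (correlations 0.20, 0.28 and 0.37) and count as paired, which moved no count of that comparison beyond 1.5 times; those of hda9 and WT did not all do so (0.00, 0.20 and 0.25). Libraries of hda9 at 27 and 22 °C also deviated together (0.14, 0.13 and 0.20), those of WT at both temperatures did not all do so (0.02, 0.06 and 0.21), and the block moved the count of the difference between temperatures by more than 1.5 times. The labels do not say what the numbers share.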

Additional observations from a re-analysis of the deposited data

Results flagged for a closer look

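The difference of hda9 from WT at 27 °C and 7 days was tested against that at 22 °C and against that at 2 days. The largest differences of effects (log2, limma) are given here with no explanation. They were taken from called genes with a mean of 50 or more over the 6 libraries at 27 °C and 7 days. Between 27 and 22 °C 768 genes differed. The effect at 27 °C was more positive for XTH23 by 2.61, for ACS7 by 2.16, for the small heat-shock gene AT1G53540 by 2.07, for the aldo-keto reductase gene ChlAKR by 1.79, for the receptor-like protein gene RLP6 by 1.72 and for the receptor-like kinase gene CRK18 by 1.70. CRK18 was higher in hda9 at 27 °C (0.75) and lower at 22 °C (-0.96). AT1G53540 and ChlAKR were lower in hda9 at 22 °C (-2.48 and -1.92) and not called at 27 °C (-0.41, adjusted p 0.239, and -0.13, adjusted p 0.754). The effect was more negative for the seed oleosin OLEO2 (-3.23), AT1G54870 (-2.36), the LEA gene M10 (-1.84), AT4G28800 (-1.52), AT1G02470 (-1.47) and AT4G37850 (-1.47). AT1G54870 had a log2 difference of -2.36 at 27 °C and 0.00 at 22 °C. With 1 library left out, XTH23, AT1G53540, RLP6, CRK18, OLEO2 and AT1G02470 kept the call in all 12 fits, ACS7 and ChlAKR in 8, AT4G28800 in 6, M10 in 4, and AT1G54870 and AT4G37850 in 2.

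Between 7 and 2 days at 27 °C 3430 genes differed. More positive at 7 days were AT5G41740 (3.03), the UDP-glycosyltransferase gene AT2G36970 (2.86), the indole glucosinolate methyltransferase gene IGMT2 (2.52), CRK30 (2.47), the nitrate transporter gene NRT1.8 (2.42) and BGLU28 (2.31). More negative were AT3G21320 (-4.58), the annexin gene ANNAT7 (-4.31), PELPK2 (-3.89), AT3G55240 (-3.89), the suberin transporter gene ABCG6 (-3.75) and MYB41 (-3.45), a transcription factor for suberin. ANNAT7, PELPK2, AT3G55240 and ABCG6 were higher in hda9 at 2 days, by 4.33, 3.83, 4.01 and 3.87, as was MYB41, and none of the 5 was called at 7 days. Apart from MYB41, called in 10 of 12 fits with 1 library left out, the other 11 kept the call in all 12.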

How the results depend on the processing

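Counts of called genes in hda9 against WT stayed within 1.5 times of 7275 under all alternatives: 5663 to 6683 with 1 library left out (lowest without hda9 replicate 3), with 3090 to 3643 higher and 2551 to 3040 lower, and 7041 to 7921 under the other settings. At least 2-fold, 179 to 259 genes were higher and 336 to 417 lower with 1 library left out. The count most open to the processing was the difference of effects between 27 and 22 °C (768 called, 608 higher, 160 lower): DESeq2 gave 1155 (274 lower), and the compared groups alone 1512 (1133 higher, 379 lower). With 1 library left out it was 329 to 1050, with 268 to 800 higher and 61 to 250 lower, the lowest without hda9 27 °C replicate 3 and the highest without hda9 27 °C replicate 2. The difference between ages ranged over 2460 to 4057 called genes (1406 to 2171 higher, 1054 to 1886 lower) and hda9 against pif4 over 4633 to 5312 (2501 to 2889 higher, 2132 to 2423 lower). The cause of these shifts was not tested, beyond the smaller number of samples.

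With the replicate block the main comparison called 7921 genes, the difference between temperatures 1213 (934 higher, 279 lower), the difference between ages 4227 and hda9 against pif4 6963. Each sample of hda9 and pif4 at 27 °C correlated best with its own number; hda9 and WT replicate 1 did not.

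Of 134 named genes called in hda9 against WT, 8 to 22 lost the call with 1 library left out (22 without hda9 replicate 3), 5 without a filter, 4 with the compared groups alone, 2 with DESeq2, 1 each with edgeR and a pseudocount of 8, and 0 with TMM or the block; none changed sign. The lower TIR-NBS-LRR genes numbered 3 with edgeR and with DESeq2. Genes near a value of 10, such as AGL19, rest on few reads.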

Other observations

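Gene groups chosen after their values were seen extend the description of hda9 at 27 °C and 7 days. Of 34 tested translation initiation factor genes 16 were higher, beside 19.1% over all genes, 18 were not called, and none was lower by limma, edgeR or DESeq2 (1 was lower at an unadjusted p under 0.05, and 1 was called lower without hda9 replicate 2), with a median log2 difference of 0.19. EIF3A, a scaffold subunit of the factor that prepares the small ribosomal subunit, had 15897, 15758 and 16590 in hda9, against 10081, 10646 and 11200 in WT, without overlap (log2 difference 0.60, adjusted p 8.24e-06). AT1G76810, an eIF-2 family protein, rose by 0.69 (adjusted p 1.16e-07). SEC14-like lipid transfer proteins, which move phosphoinositides between membranes, had 13 lower and 0 higher of 25 genes (median -0.22), with 0 higher also by edgeR and DESeq2, 1 higher at an unadjusted p under 0.05 and 1 higher without WT replicate 1.

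Some triterpene genes, chosen after their values were seen, were higher in hda9, and no count over all genes of these pathways was made. MRN1 (2.56) is marneral synthase, and its partners in the marneral pathway are the cytochrome P450 genes CYP705A12 and CYP71A16. CYP705A12 had 93.9, 122 and 119 in hda9, against 58.7, 56.7 and 48.9 in WT (log2 difference 1.01, adjusted p 0.000438). CYP71A16 had 359, 391 and 469 in hda9, against 282, 213 and 244 in WT (0.72, adjusted p 0.00379). All hda9 libraries of both lay above all WT libraries. The P450 gene CYP705A5 of the related thalianol pathway had 587, 848 and 834 in hda9, against 341, 312 and 363 in WT (1.14, adjusted p 3.29e-05).

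By annotated class, among genes annotated as ncRNA 24 of 108 were lower and 6 higher (median -0.15), among snoRNA genes 6 of 23 were higher (median 0.32), and among pseudogenes 44 of 169 were higher and 28 lower (median 0.07). Of 130 transcribed pseudogenes 8 were higher and 13 lower, of 94 lncRNA genes 6 and 9, and of 22 miRNA genes 1 and 2. The differences between classes were not tested. These counts stand beside 19.1% higher and 16.3% lower over all genes.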
